A study of Mus musculus with 2 samples.

Results

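The 9 genes followed belong to the inflammatory response: the cytokine genes Il1b, Il1a, Tnf, Osm, Il6 and Il10, the inflammasome sensor gene Nlrp3, and the receptor genes C5ar1 and Clec4d. Their chromatin was read from single-nucleus ATAC-seq, in which a transposase cuts open DNA and the cuts are counted in peaks. Any peak that overlapped the body of a gene or lay within 20 kb of one of its transcription start sites (TSS) in the GENCODE M21 annotation was kept. Overlapping peaks of the libraries were merged, which left 110 regions for these 9 genes out of 275294 regions in the series, and 78 of the 110 had a peak of both libraries. Of the 110 regions 14 lay at the promoter of another gene, such as Ckap2l, Ltb or C5ar2. Coordinates are mm10, as in the files. The organoids came from mammary glands of C57BL/6J mice of the genotype shTRPS1.34 ki/+; CAG-rtTA3 tg/+, so both groups carried a doxycycline-inducible shRNA against Trps1, which codes for a repressor of the GATA family, and a transactivator driven by the ubiquitous CAG promoter. The first group received doxycycline at 0.1 µg/ml (DOX) and the other ethanol (EtOH), each for 7 days. Each group was 1 library of pooled mice, and the sources differ on how many. The study describes the treated and control organoids as matched. No library without the Trps1 shRNA was analysed here, so the effects of doxycycline and of the shRNA cannot be told apart. The knockdown itself cannot be checked in these data because an shRNA acts on the transcript, not on chromatin. With 1 library a group there was no test, and every interval given is a 95% interval that covers counting error only.

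The genes have distinct roles. Nlrp3 is the sensor of an inflammasome that, through caspase-1, matures the IL-1β made from Il1b, while IL-1α, made from Il1a, is active without that step and serves as an alarm signal. TNF, IL-6 and oncostatin M (Osm) are secreted signals that act through NF-κB or JAK-STAT pathways, and IL-10 limits inflammation. C5ar1 is the receptor for the complement fragment C5a, and Clec4d is a C-type lectin of myeloid cells that signals through the Fc receptor gamma chain. Macrophages make all of these and are resident around the ducts of the mammary gland, while epithelial cells can also make IL-1 and IL-6.

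The DOX library held 3071 nuclei at 75296 counts per nucleus (median) and the EtOH library 3104 nuclei at 66790, and 23 barcodes occurred in both libraries. Doublets were not called. A nucleus was called marker-open when at least 2 counts lay within 1 kb of a TSS of Ptprc, Csf1r or C1qb, genes that mark leukocytes and macrophages. This held for 1493 nuclei in DOX (48.6%, interval 46.8 to 50.4) and 762 in EtOH (24.5%, interval 23.0 to 26.1). The rule did not collect the same nuclei in both libraries. Of the marker-open nuclei 80.8% in DOX and 33.2% in EtOH lay in clusters 3 and 6, the clusters in which the macrophage marker list led by at least 2-fold over the other nuclei (median log2 2.54 and 2.11), and 545 of the 762 EtOH nuclei were open at 1 marker only against 501 of 1493 in DOX. Outside those clusters Csf1r was open in 11.9% of DOX and 14.9% of EtOH nuclei. Summed over all 11 macrophage markers, accessibility was 471 CPM in DOX and 218 CPM in EtOH marker-open nuclei, where CPM are the counts of a class scaled to 1000000 in the regions both libraries share, and summed over all 6 epithelial markers 105 and 228 CPM. The 11 macrophage markers include the 3 genes of the marker-open rule, so their sum in marker-open nuclei was partly set by that rule. Within cluster 3 the macrophage sum was 561 CPM in DOX and 574 in EtOH, and within cluster 6 it was 629 and 652, with epithelial sums of 46.7 and 49.0 in cluster 3 and 37.7 and 32.4 in cluster 6. Cluster 6 had the B-cell gene Ms4a1 and none of the macrophage markers among its leading genes, so the clusters were kept by number. The same list also led, at log2 0.31, in cluster 8, which held 39 DOX and 21 EtOH nuclei at a median of 8010 counts and stayed outside this group. Of other cell types, the 3 measured endothelial markers summed to 76.7 and 78.3 CPM in cluster 3 and 3 T-cell markers to 39.0 and 38.3, of which Cd3d gave 38.0 and 37.6. In marker-open nuclei the endothelial sum was 61.4 CPM in DOX and 26.5 in EtOH and the T-cell sum 31.8 and 12.2, so that both were higher in DOX beside the genes below, and their part in those ratios was not tested. There 4 measured neutrophil markers summed to 30.1 CPM in DOX and 22.3 in EtOH, 2 dendritic cell markers to 36.2 and 30.8, and 3 fibroblast markers to 33.9 and 39.5, while none of 4 mast cell markers had a shared promoter region. Because of these differences the results below are given for marker-open nuclei and for clusters 3 and 6, and the main ones also for the 992 DOX and 217 EtOH nuclei open at 2 of 3 markers. The nuclei that were not marker-open, 1578 in DOX and 2342 in EtOH, are called other nuclei.

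Promoter sequence is shown for 5 genes because they fall into contrasting groups below: Nlrp3, Il1b and C5ar1, open almost only in marker-open nuclei, and Tnf and Il6, open in other nuclei as well. Each run is the 250 bases before the RefSeq start (build GRCm38.p6), 5′ to 3′ on the gene's strand, and capitals mark motif matches on either strand. The motif searched for PU.1, a myeloid factor, was GAGGAAG. That for AP-1 was the letters TGANTCA, with N for any base. For the C/EBP factors the letters TTGCNNAA were searched. A cyclic AMP response element was taken as TGACGTCA. The GATA motif was spelled AGATAA, and the longer NF-κB motif was searched by its consensus.
Nlrp3 at its upstream start site, chr11:59541319-59541568, plus strand: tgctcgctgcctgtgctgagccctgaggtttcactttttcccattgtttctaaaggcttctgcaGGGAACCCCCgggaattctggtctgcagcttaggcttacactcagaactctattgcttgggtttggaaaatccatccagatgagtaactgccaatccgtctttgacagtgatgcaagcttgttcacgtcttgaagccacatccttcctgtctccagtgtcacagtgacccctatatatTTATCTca
Il1b, chr2:129371140-129371389, minus strand: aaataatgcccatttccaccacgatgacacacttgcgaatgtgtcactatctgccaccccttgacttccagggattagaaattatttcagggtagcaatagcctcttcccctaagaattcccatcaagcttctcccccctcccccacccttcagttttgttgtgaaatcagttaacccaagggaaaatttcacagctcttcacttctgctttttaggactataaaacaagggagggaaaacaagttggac
C5ar1, chr7:16259339-16259588, minus strand: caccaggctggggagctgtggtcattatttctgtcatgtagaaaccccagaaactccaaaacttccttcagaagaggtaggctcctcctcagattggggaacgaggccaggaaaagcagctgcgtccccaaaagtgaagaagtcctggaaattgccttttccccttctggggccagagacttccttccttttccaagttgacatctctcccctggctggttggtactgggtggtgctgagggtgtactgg
Tnf, chr17:35202008-35202257, minus strand: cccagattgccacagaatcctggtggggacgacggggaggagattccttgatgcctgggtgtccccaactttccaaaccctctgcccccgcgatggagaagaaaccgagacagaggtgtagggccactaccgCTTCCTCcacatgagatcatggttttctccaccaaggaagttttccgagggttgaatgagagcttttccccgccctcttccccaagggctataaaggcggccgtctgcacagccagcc
Il6, chr5:30012864-30013113, plus strand: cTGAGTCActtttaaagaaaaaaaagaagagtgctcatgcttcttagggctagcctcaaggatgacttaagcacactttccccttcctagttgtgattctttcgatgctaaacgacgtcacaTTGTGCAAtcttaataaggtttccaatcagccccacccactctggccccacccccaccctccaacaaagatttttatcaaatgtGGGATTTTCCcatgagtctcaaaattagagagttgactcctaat
The Il6 run held an NF-κB match starting at -44, a C/EBP match at -128 and an AP-1 match at -249, counted from the start site with -1 as the base before it. The Tnf run held a PU.1 match at -118. The Nlrp3 run held an NF-κB match at -186 and a GATA match at -8, and the stretch before its downstream start, which is not printed, had PU.1 matches at -130 and -36. The Il1b and C5ar1 runs held none of the 6 motifs in these windows. Of the 8 promoters available for 7 of the genes, 4 held PU.1, while 10.6% of 32851 promoters did so. AP-1 was in 2, C/EBP in 1, GATA in 1, NF-κB in 2 and the cyclic AMP element in 0 of the 8, beside 6.75%, 9.56%, 9.99%, 3.90% and 1.55% of all promoters. Osm and Il10 were not in the promoter table.

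The 2 distal regions with sequence below were picked for their high ratios of DOX over EtOH, given further on. For each, 200 bases around the middle of the longest stretch shared by a DOX and an EtOH peak follow, on the plus strand. The same motifs are in capitals.
Il10, inside the gene, chr1:131021537-131021736, plus strand: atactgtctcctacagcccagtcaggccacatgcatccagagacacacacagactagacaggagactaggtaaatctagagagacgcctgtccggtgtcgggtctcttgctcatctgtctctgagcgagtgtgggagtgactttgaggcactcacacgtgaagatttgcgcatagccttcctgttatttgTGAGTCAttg
Il1b, beyond its 3′ end, chr2:129360255-129360454, plus strand: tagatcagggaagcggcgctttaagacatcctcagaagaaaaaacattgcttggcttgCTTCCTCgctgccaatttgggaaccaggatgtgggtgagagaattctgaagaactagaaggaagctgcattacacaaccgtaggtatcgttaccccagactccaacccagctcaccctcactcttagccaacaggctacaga
The Il10 stretch held 1 AP-1 match. Shares over regions were taken from the central 200 bases of each merged region. For the Il10 region those bases lie mostly before the printed stretch and do not reach this match. AP-1 matches were in 16.5% of all 174940 shared regions and in 14 of the 78 shared regions of these genes (17.9%). A stretch of a Tnf region at -8.19 kb, lower in DOX in other nuclei, is not printed and also held 1 AP-1 match. The Il1b stretch held 1 PU.1 match, present in 11.1% of all shared regions and 15 of these 78 (19.2%). C/EBP matches were in 16 of 78 (20.5%) against 11.4% of all. GATA matches were in 4 of 78 (5.13%) against 8.62% of all.

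Within each library most regions of these genes were more open in marker-open than in other nuclei. A region was compared when it had at least 100 counts over both classes and was called at a ratio of 2-fold or more. In DOX 55 of 77 regions were higher and 6 lower in marker-open nuclei, beside 18.1% and 40.3% of all regions, with a median log2 ratio of 3.13 against -0.57 over all regions. In EtOH 47 of 78 were higher and 2 lower, beside 15.0% and 13.4%, with a median of 1.82 against -0.01. Distances are given from the nearest start site of the gene, negative upstream. The widest gap in DOX was at a Clec4d region at -17.6 kb, with 13.2 CPM in marker-open and 0.172 CPM in other DOX nuclei (log2 6.26, interval 5.33 to 7.39). The members were not equally restricted. Promoter ratios in DOX and EtOH were log2 5.07 and 4.25 for Nlrp3, 4.99 and 4.60 for C5ar1, 4.29 and 3.17 for Il1b, 4.15 and 3.00 for Osm, and 3.80 and 2.49 for Clec4d. Those of Tnf were 1.73 and 0.69, and those of Il6 0.54 and 0.25, so that all 7 were above 0 in both libraries and only Il6 was below 2-fold in DOX. Of all gene promoters 6.40% were at least 2-fold higher in marker-open nuclei in DOX and 3.30% in EtOH. Marker-open nuclei supplied 78.0% of all counts in the 78 regions in DOX and 41.2% in EtOH, and clusters 3 and 6 supplied 73.9% and 25.6%. The share from these clusters was highest for Clec4d, at 95.4% in DOX and 80.3% in EtOH, and lowest for Il6, at 48.1% and 10.7%.

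**Figure D1:**
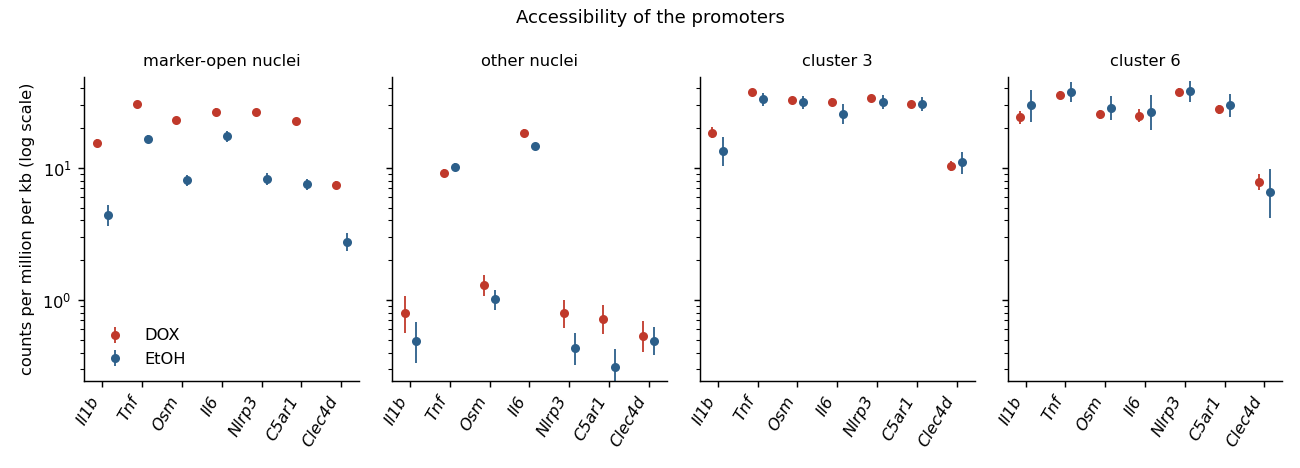
Promoter accessibility per kb (log axis) of the 7 genes with a shared promoter region in 4 classes of nuclei. Points are the 1 DOX and 1 EtOH library and bars are 95% Poisson intervals. Tnf and Il6 stand apart from the other genes in other nuclei, where Il6 reached 18.5 and 14.6 CPM per kb, and the libraries separate in marker-open nuclei but lie close together in clusters 3 and 6.

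The first comparison of the design, DOX against EtOH within marker-open nuclei, gave higher accessibility at most of these regions in DOX. Of 73 regions compared 46 were called higher and 2 called lower, beside 14.1% and 30.5% of all regions, and the median log2 ratio was 1.42 against -0.28 over all regions. These counts differed between rules for the class, and the cause was not tested. Among nuclei open at 2 of 3 markers, of which 97.6% in DOX and 83.9% in EtOH lay in clusters 3 and 6, 6 of 71 regions were higher and 2 lower, beside 4.48% and 10.0%, and the median was 0.29. In cluster 3, with 903 DOX and 215 EtOH nuclei, 3 of 68 were higher and 0 lower, beside 6.12% and 0.662%, and the median was 0.05. In cluster 6, with 380 and 68 nuclei, 1 of 61 was higher and 0 lower, beside 5.98% and 0.878%, and the median was -0.00. The regions called higher within the clusters were thus 4.41% and 1.64% of those compared, below the shares over all regions. The 5 highest ratios in marker-open nuclei were at Il10 regions at 1.61 kb (log2 2.16) and 6.15 kb (2.13), the upstream Nlrp3 promoter region (1.89), and Il1a regions at -6.12 kb (1.88) and -4.12 kb (1.83). The 5 lowest were an Il10 region at 3.18 kb (log2 -1.43), Tnf regions at 2.92 kb (-1.09) and 15.1 kb (-0.34), an Osm region at -20.0 kb (-0.85) and an Il6 region at 5.09 kb (-0.38). With 2 of 3 markers open, the 6 regions higher in DOX were Il10 at 1.61 kb (log2 1.44, interval 1.02 to 1.90) and 6.15 kb (1.02), Il1a at -8.03 kb (2.06) and -12.5 kb (1.15), and Osm at -7.84 kb (1.22) and 15.3 kb (1.04). Those lower were the Il10 region at 3.18 kb (log2 -1.88) and the Osm region at -20.0 kb (-1.11). The intervals of Il1a at -12.5 kb and Osm at 15.3 kb included 0. Summed by gene, all 9 genes had intervals above 0 with 2 of 3 markers open, from log2 0.15 for Clec4d (interval 0.02 to 0.28) to 0.66 for Il10 (interval 0.48 to 0.84). Among them Nlrp3 was at 0.32, Il1a at 0.36, Il1b at 0.19 and Osm at 0.16, and at the promoters Il1b was at 0.56, Nlrp3 at 0.36, Osm at 0.29, Tnf at 0.27, Clec4d at 0.25, C5ar1 at 0.23 and Il6 at 0.21, where the intervals of Clec4d and Il6 included 0. In these nuclei the epithelial markers summed to 53.0 CPM in DOX and 93.8 in EtOH and the macrophage markers to 584 and 519. The macrophage list includes the 3 markers of the rule.

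**Figure D2:**
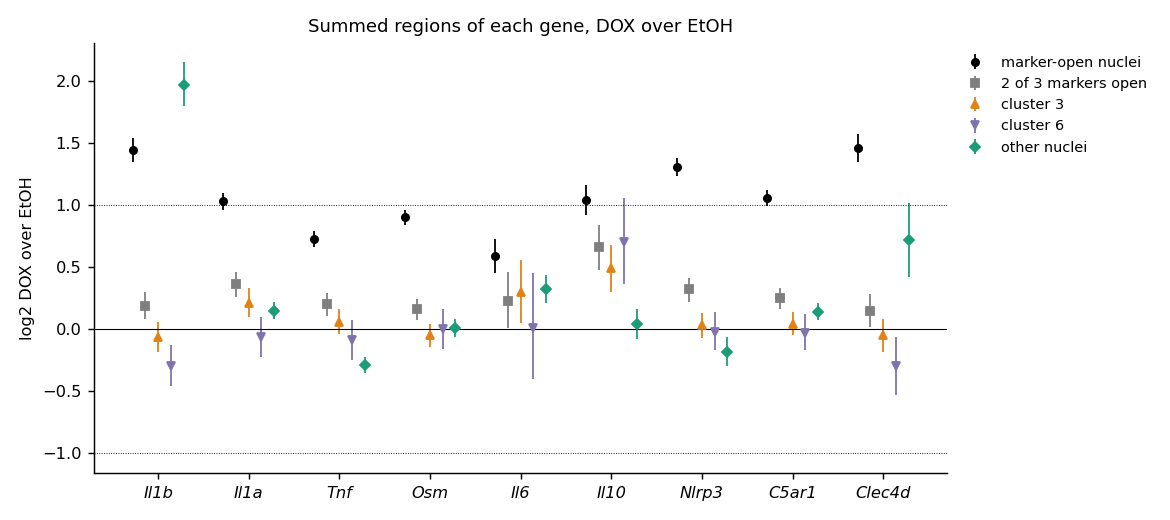
Log2 ratio of DOX over EtOH for the summed shared regions of each gene, by class of nuclei, with 95% counting intervals and dotted lines at 2-fold. In marker-open nuclei all 9 genes lie above 0, from 0.59 (Il6) to 1.46 (Clec4d), while in clusters 3 and 6 Il10 lies at 0.49 and 0.70 and the other 8 genes lie between -0.30 and 0.30.

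**Figure D3:**
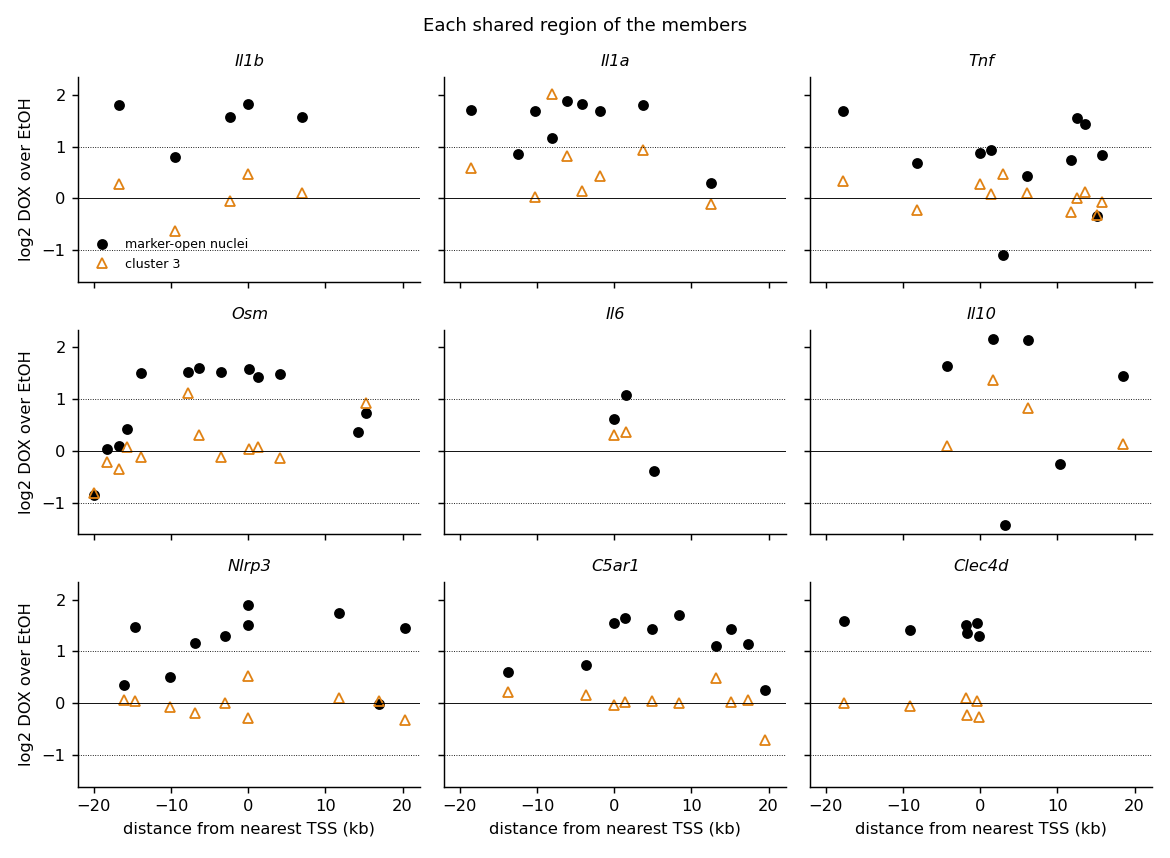
Log2 ratio of DOX over EtOH for every shared region with at least 100 counts, by its distance from the nearest TSS of the gene (negative is upstream), in marker-open nuclei (filled circles) and in cluster 3 (open triangles). Dotted lines mark 2-fold, and the triangles past the upper line are 1 region each of Il1a, Osm and Il10.

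Nlrp3 (ENSMUSG00000032691.14, chr11:59541568-59566956, plus strand, 18 regions), the inflammasome sensor, had a promoter level of 44.8 CPM in DOX and 13.8 CPM in EtOH marker-open nuclei, a log2 ratio of 1.70 (interval 1.54 to 1.85). In cluster 3 the levels were 56.8 and 52.6 CPM (log2 0.11, interval -0.08 to 0.30), and in cluster 6 they were 62.7 and 64.1 CPM. The sum hid a difference between its start sites in cluster 3. The region at the upstream start, chr11:59541040-59541922, had 31.7 CPM in DOX and 22.1 in EtOH there (log2 0.52, interval 0.24 to 0.81), but 28.6 and 31.1 in cluster 6, where the interval of the ratio was -0.52 to 0.30. The region at the downstream start, chr11:59542265-59543057, leaned the other way in cluster 3, with 25.1 and 30.5 CPM (log2 -0.28, interval -0.53 to -0.03), and had 34.1 and 33.0 in cluster 6. An intronic region 11.8 kb downstream, chr11:59554126-59555031, was the most accessible distal region of the gene, with 29.3 and 27.4 CPM in cluster 3 and 38.3 and 35.1 in cluster 6. Outside the marker-open nuclei the promoter had 1.33 CPM in DOX and 0.724 in EtOH, and 0.545 and 0.490 once clusters 3 and 6 were also left out. After each nucleus was thinned to 10000 counts the promoter was open in 9.45% (interval 8.01 to 11.1) of marker-open DOX and 3.57% (interval 2.37 to 5.15) of marker-open EtOH nuclei, and in 10.7% and 9.66% of cluster 3 nuclei, against 65.5%, 24.7%, 74.2% and 62.8% before thinning.

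Il1b (ENSMUSG00000027398.13, chr2:129364570-129371139, minus strand, 8 regions), the substrate of that pathway, had 14.6 CPM at its promoter in DOX and 4.13 in EtOH marker-open nuclei (log2 1.82, interval 1.54 to 2.11). In cluster 3 it had 17.5 and 12.7 CPM (log2 0.47, interval 0.09 to 0.86), and in cluster 6 it had 22.7 and 28.2 CPM (log2 -0.31, interval -0.74 to 0.14). The clusters thus pointed in opposite directions, and only the interval of cluster 3 left out 0. The share of nuclei with the promoter open was 33.8% in DOX and 10.8% in EtOH among marker-open nuclei, and 1.96% and 1.15% among other nuclei. After thinning each nucleus to 10000 counts the shares among marker-open nuclei were 1.75% (interval 1.15 to 2.56) and 1.19% (interval 0.546 to 2.25), which overlap. A region at -2.31 kb was the most accessible of the gene, with 47.0 and 48.4 CPM in cluster 3 and 57.1 and 60.1 in cluster 6, so that its libraries did not separate there.

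Il1a (ENSMUSG00000027399.1, chr2:129299610-129309972, minus strand, 11 regions), the alarm cytokine next to Il1b, had a promoter peak in DOX only, chr2:129309628-129310472. There it held 14.8 CPM in marker-open and 0.699 CPM in other DOX nuclei (log2 4.40, interval 3.92 to 4.92), and the EtOH library had no peak there to compare. Summed over its 9 shared regions Il1a had 139 CPM in DOX and 68.3 in EtOH marker-open nuclei, 158 and 136 in cluster 3 (log2 0.21, interval 0.10 to 0.33), and 184 and 192 in cluster 6 (log2 -0.06, interval -0.22 to 0.10). A region at -8.03 kb stood above the rest in cluster 3, with 4.24 CPM in DOX and 1.05 in EtOH (log2 2.02, interval 0.81 to 3.57). It rested on 11 EtOH counts, and the DOX peaks covered 1114 bp of it against 853 bp in EtOH, so that per covered base the ratio was 1.63. The most accessible distal region in the window, with 50.2 and 53.8 CPM in cluster 3, lies at the promoter of Ckap2l, a different gene, and had 44.0 and 44.4 CPM in other nuclei.

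Tnf (ENSMUSG00000024401.14, chr17:35199381-35202007, minus strand, 16 regions), the founding member of its cytokine family, was open in every class. Its promoter had 56.2 CPM in DOX and 30.3 in EtOH marker-open nuclei (log2 0.89, interval 0.78 to 1.00), 69.2 and 60.6 in cluster 3 (log2 0.19, interval 0.02 to 0.37), 65.6 and 69.4 in cluster 6 (log2 -0.08, interval -0.35 to 0.19), and 16.9 and 18.8 in other nuclei (log2 -0.15, interval -0.28 to -0.03). Its window also covers the promoters of Lta, Ltb and Lst1, whose regions cannot be assigned to a single gene. A region over an exon 2.92 kb downstream of the start, chr17:35198634-35199533, was lower in DOX marker-open nuclei, with 4.79 against 10.2 CPM (log2 -1.09, interval -1.34 to -0.84). In cluster 3 it held 2.49 and 1.81 CPM, with an interval from -0.52 to 1.62, and it was at 12.3 and 13.3 CPM in other nuclei.

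Il6 (ENSMUSG00000025746.11, chr5:30013114-30019981, plus strand, 8 regions) was the least restricted gene. Its promoter held 24.6 CPM in DOX and 16.0 in EtOH marker-open nuclei (log2 0.62, interval 0.47 to 0.78) and 17.0 and 13.4 in other nuclei (log2 0.34, interval 0.21 to 0.47). Cluster 3 had 29.0 and 23.5 CPM and cluster 6 had 22.9 and 24.5. Osm (ENSMUSG00000058755.3, chr11:4236420-4241026, plus strand, 16 regions), an IL-6 family cytokine, showed the opposite restriction. Its promoter held 41.9 and 14.7 CPM in marker-open nuclei (log2 1.51, interval 1.36 to 1.67), 2.35 and 1.84 in other nuclei, 59.3 and 57.3 in cluster 3, and 46.4 and 52.1 in cluster 6. In both clusters its intervals of the ratio included 0. A small Osm region at -7.84 kb had 3.11 CPM in DOX and 1.43 in EtOH in cluster 3 (log2 1.12, interval 0.05 to 2.43), from 15 EtOH counts.

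Il10 (ENSMUSG00000016529.5, chr1:131019845-131024974, plus strand, 12 regions), the anti-inflammatory cytokine, was the only one of the 9 genes whose summed regions had an interval above 0 in both clusters 3 and 6. It had no peak at its promoter in either library, so its 10 shared regions were summed. They held 55.3 CPM in DOX and 26.9 in EtOH marker-open nuclei (log2 1.04, interval 0.92 to 1.16), 68.5 and 48.8 in cluster 3 (log2 0.49, interval 0.30 to 0.68), 64.3 and 39.6 in cluster 6 (log2 0.70, interval 0.36 to 1.06), and 18.7 and 18.2 in other nuclei. The largest part of this difference lay in the region whose sequence is shown above, chr1:131021051-131021852, 1.61 kb downstream of the start and overlapping an exon. It held 14.9 CPM in DOX and 3.33 in EtOH marker-open nuclei (log2 2.16, interval 1.86 to 2.49). It held 18.7 and 7.23 in cluster 3 (log2 1.37, interval 0.90 to 1.89) and 21.4 and 6.91 in cluster 6 (log2 1.63, interval 0.83 to 2.55). Among the regions compared in these clusters it was the only one at least 2-fold higher in both. In DOX 2 peaks covered 707 bp of it and in EtOH 1 peak covered 623 bp, and per covered base the ratios were 1.19 and 1.44. EtOH gave 76 counts in cluster 3 and 26 in cluster 6. Outside the clusters, in other nuclei, it was lower in DOX, with 0.545 against 0.910 CPM (log2 -0.74, interval -1.43 to -0.08). A second region, 6.15 kb downstream, held 11.8 and 6.66 CPM in cluster 3 (log2 0.82, interval 0.32 to 1.37) and 12.5 and 8.78 in cluster 6, where the interval ran from -0.22 to 1.34. A region over an exon 3.18 kb downstream was the lowest of all in DOX marker-open nuclei, with 3.52 against 9.46 CPM (log2 -1.43, interval -1.70 to -1.15). It was open in other nuclei at 9.08 and 9.10 CPM and nearly closed in cluster 3, at 0.951 and 1.24 CPM.

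C5ar1 (ENSMUSG00000049130.6, chr7:16246743-16259540, minus strand, 11 regions), the C5a receptor, had a promoter level of 39.1 CPM in DOX and 13.0 in EtOH marker-open nuclei (log2 1.59, interval 1.43 to 1.76). In cluster 3 both libraries were at 52.7 CPM, with an interval of the log2 ratio from -0.19 to 0.19, and in cluster 6 they were at 48.0 and 51.6. Clec4d (ENSMUSG00000030144.4, chr6:123262111-123275265, plus strand, 10 regions), the lectin receptor, had 14.5 and 5.34 CPM in marker-open nuclei (log2 1.44, interval 1.19 to 1.70), 20.2 and 21.3 in cluster 3, and 15.2 and 12.8 in cluster 6, again with intervals that included 0. In other nuclei the C5ar1 promoter had 1.23 and 0.536 CPM and that of Clec4d 1.04 and 0.954. Summed over its 6 shared regions Clec4d was lower in DOX in cluster 6 (log2 -0.30, interval -0.53 to -0.06), as was Il1b over its 5 (log2 -0.30, interval -0.46 to -0.13).

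Per kb, the order of promoter levels in DOX cluster 3 nuclei was Tnf (37.7 CPM per kb), Nlrp3 (33.9), Osm (32.5), Il6 (31.5), C5ar1 (30.4), Il1b (18.5) and Clec4d (10.4). From Nlrp3 through Osm and Il6 to C5ar1 each interval overlapped the next, while those of Tnf, Il1b and Clec4d stood clear of their neighbours.

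In other nuclei, the second comparison of the design, the ratios of DOX over EtOH centred near 0. Of 62 regions compared 10 were called higher and 3 called lower, beside 6.04% and 7.93% of all regions, with a median of 0.05. The 5 highest ratios were at Il1b at 7.00 kb (log2 2.60) and -2.31 kb (1.79), Il1a at -6.12 kb (1.75), the C5ar1 promoter (1.48) and Osm at -3.59 kb (1.32). Of these Il1b at -2.31 kb was at 0.205 and 0.203 CPM once clusters 3 and 6 were left out. Leaving out the 76 DOX and 30 EtOH nuclei of clusters 3 and 6 gave 3 higher and 4 lower of 52, with a median of -0.12. These were 5.77% and 7.69%, close to the 5.75% and 8.44% of all regions. The 3 higher regions lay at Il1b, Il1a and Clec4d. The largest ratio was at the Il1b region beyond the 3′ end of the gene, chr2:129359914-129360793, with 16.0 CPM in DOX and 2.55 CPM in EtOH (log2 2.66, interval 2.42 to 2.90). The Il1b promoter itself had 0.428 and 0.357 CPM in the same nuclei. The Il1a region at -6.12 kb, chr2:129315648-129316542, had 6.46 and 1.90 CPM (log2 1.77, interval 1.47 to 2.07), while cluster 3 had 14.6 and 8.37 CPM (log2 0.81, interval 0.35 to 1.29). The Clec4d region at -1.82 kb had 1.33 and 0.546 CPM. The lower regions included a Tnf region at -8.19 kb, with 3.70 CPM in DOX and 13.2 in EtOH (log2 -1.83, interval -2.06 to -1.61). They also included a C5ar1 region 19.5 kb downstream, with 2.70 and 7.84 CPM (log2 -1.54, interval -1.82 to -1.27), the region at the C5ar2 promoter (log2 -1.41), and a weak Il6 region 17.5 kb downstream with 37 and 118 counts, of which the DOX peak covered 535 bp and the EtOH peak 936 bp.

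The other nuclei of the libraries also differed in makeup: cluster 1 held 62 DOX and 1636 EtOH nuclei and cluster 2 held 1395 and 18. Within the clusters that had at least 50 nuclei of each library, the Il1b region remained higher in DOX in cluster 4 at 10.5 against 2.76 CPM (log2 1.93, interval 1.38 to 2.48). The same held in cluster 7 at 15.8 against 4.33 CPM (log2 1.87, interval 1.11 to 2.68) and in cluster 1 at 7.25 against 2.67 CPM (log2 1.44, interval 0.49 to 2.26). In cluster 5 it had 2.01 and 1.27 CPM, with an interval from -0.88 to 1.99. Hormone-sensing luminal markers led in clusters 4 and 5, basal markers in cluster 7 and luminal progenitor markers in cluster 1. The Il1a region was higher in cluster 4 (log2 1.86, interval 1.16 to 2.56) and cluster 5 (log2 1.26, interval 0.13 to 2.31), but not beyond counting error in cluster 7 (log2 0.28, interval -0.25 to 0.81). The Tnf region was lower in cluster 4 (log2 -1.34, interval -2.20 to -0.59), had intervals that included 0 in clusters 1, 5 and 7, and had a positive value in cluster 5 (log2 0.43). For the C5ar1 region 19.5 kb downstream the intervals in clusters 1, 4, 5 and 7 all included 0, while clusters 3 and 6 gave -0.71 (interval -1.08 to -0.32) and -0.60 (interval -1.11 to -0.05).

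**Figure D4:**
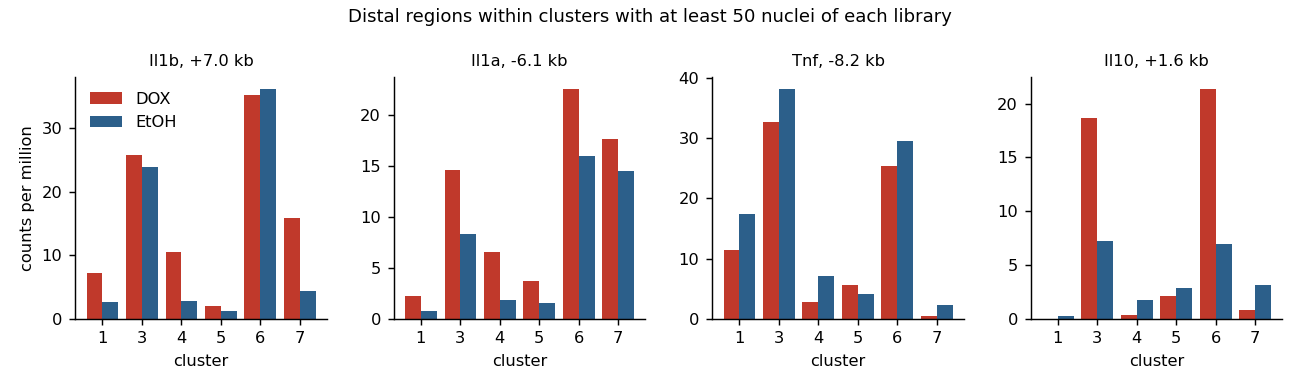
CPM at 4 distal regions in DOX and EtOH nuclei of each cluster that held at least 50 nuclei of both libraries, with the distance from the nearest TSS in each panel's title. The Il1b region is higher in DOX in clusters 1, 4 and 7, while the libraries lie close together in clusters 3 and 6, where it is most open, and the Il10 region separates in clusters 3 and 6, at 18.7 against 7.23 and 21.4 against 6.91 CPM.

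Counted per nucleus, several of these promoters were open together. Of the 7 genes with a shared promoter region, the median number open was 4 in DOX and 1 in EtOH marker-open nuclei, and 1 in other nuclei of both libraries. Among marker-open nuclei 75.2% in DOX and 30.2% in EtOH had 3 or more open, and 4.25% and 2.65% of other nuclei did. Of the marker-open nuclei 5.76% in DOX and 19.3% in EtOH had none open. In clusters 3 and 6 DOX nuclei had 5 open at the median and EtOH nuclei 4. Depth differed in the same direction, at 73199 against 51161 counts per nucleus in cluster 3 and 80215 against 56444 in cluster 6, and its part in these medians was not tested.

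**Figure D5:**
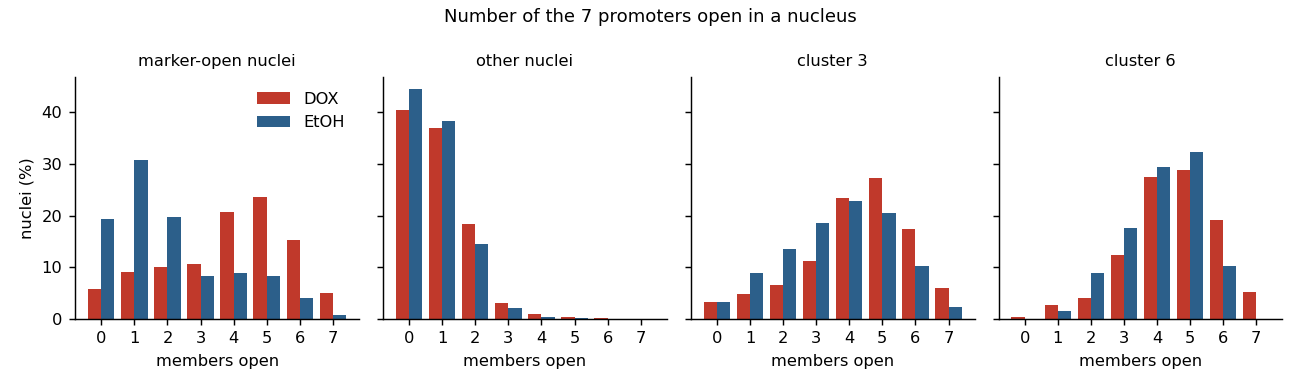
Share of nuclei (%) by the number of the 7 promoters open, in 4 classes of nuclei, DOX and EtOH. Other nuclei pile up at 0 and 1 in both libraries, clusters 3 and 6 around 4 and 5, and among marker-open nuclei DOX has 75.2% and EtOH 30.2% at 3 or more.

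Of the 110 regions 21 had a peak in DOX only and 11 in EtOH only. The remaining 78 had a peak of both libraries, beside 174940 of all 275294 regions. How the single-library regions of the series divide between DOX and EtOH is not given here. In the DOX library 20 of the 21 were at least 2-fold higher in marker-open than in other nuclei, beside 66.8% of all DOX-only regions, with a median log2 ratio of 4.06. They included 2 regions that reached within 1 kb of a Nlrp3 start, with 7.77 and 6.24 CPM in marker-open nuclei, and an intronic Nlrp3 region with 8.48 CPM. The EtOH-only regions had 11 to 149 counts in marker-open EtOH nuclei, and their counts in other EtOH nuclei are not given here.

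Of 40 other listed genes of these pathways 38 had a shared promoter region. In marker-open nuclei 7 were at least 2-fold higher in DOX and 0 lower, beside 3.77% and 8.18% of all promoters. Of these 5 were among the 6 measured complement and lectin receptor genes, led by Clec4e (log2 2.16, interval 1.83 to 2.50), which codes for the partner lectin of Clec4d, and Fcer1g (log2 1.68, interval 1.48 to 1.88), which codes for their signaling chain and is itself on the macrophage list. The other 2 were Casp4 and Nlrc4 among 9 inflammasome genes. C5ar2, also among these receptor genes (log2 1.36), has its promoter in the C5ar1 window, so its region was counted for C5ar1 as well. The lowest ratios were at receptor genes, Osmr (log2 -0.97, interval -1.16 to -0.78) and Il1r1 (log2 -0.71, interval -0.84 to -0.58). No listed promoter reached 2-fold among nuclei open at 2 of 3 markers, beside 0.648% and 3.50% of all promoters, or in cluster 3, beside 0.815% and 0.235%. The median over the 38 was 0.43 in marker-open nuclei, against 0.17 over all promoters, and -0.04 in cluster 3, equal to that over all.

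Over the 8 clusters, with both libraries pooled, the promoters most alike in log2 CPM were Irf5 for Nlrp3 (Pearson's r 1.000), Clec4a3 for C5ar1 (r 0.996), Txndc5 for Il1b (r 0.997), Tcirg1 for Tnf (r 0.997), Eif4ebp1 for Osm (r 0.997), Fam57b for Clec4d (r 0.997) and Nxpe4 for Il6 (r 0.976), each the best of 16339 genes. The next in order were Cd300c2 and P2ry10b for Nlrp3, Neurl3 and C1qb for C5ar1, Myo1g and Gm10160 for Il1b, Hoxa3 and Capn10 for Tnf, Serpinb12 and Prpf4b for Osm, Lyl1 and Rasgrp4 for Clec4d, and Gpr137b and Slc14a1 for Il6. The clusters were built from the same libraries and pooled both groups, so these values are descriptions over 8 points.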

How the data were processed

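Organoids of both groups were profiled by 10x single-nucleus ATAC-seq, 1 library each, and groups were taken from the sample labels. The deposited files hold, for each library, whole-number counts of transposition events per peak and barcode, made by Cell Ranger ATAC 2.0.0 per the file headers on mm10 per the submitters' processing notes. The study's methods name another version of that program. Peaks were called by the authors in each library alone, with no normalization.

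From these counts overlapping peaks were merged, and the 174940 regions with a peak of both libraries were compared. A region with a peak in 1 library has no count in the other, which is not 0. Counts were summed over a class of nuclei and scaled to 1000000 in shared regions (CPM). Most values were even because a fragment has 2 ends, so intervals (exact Poisson, Clopper-Pearson or conditional binomial, 95%) used counts divided by 2. They cover counting error only. Nuclei are not replicates, so no test was run. Regions with at least 100 counts were called at 2-fold. Nuclei were clustered without the regions of the 9 genes (TF-IDF, components 2 to 30, 15 neighbours, Leiden at resolution 0.5, leidenalg 0.10.2). Calls were checked on simulated data. Python 3.11.15, numpy 2.4.6 and scipy 1.17.1 were used.

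All 9 genes are named, with each one's most accessible promoter and distal regions. Called regions are named where 10 or fewer were called, and otherwise from the highest and lowest ratios. Of the pathway genes the 2 highest and 2 lowest are named, and Casp4, Nlrc4 and C5ar2 were named after their values were seen. The genes and lists were chosen with earlier results of these data known. Alternatives covered the class rule, depth, scaling, count minimum, peak overlap, window and deep nuclei. Clusters 3 and 6 alone, their removal from the other nuclei and the ratio per covered base were added after seeing the data.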

Additional observations from a re-analysis of the deposited data

Results flagged for a closer look

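The log2 ratio of DOX over EtOH pointed in opposite directions in marker-open and other nuclei for 2 genes, and the difference was not tested, since each group is 1 library. For Tnf the summed regions gave 0.73 in marker-open and -0.29 in other nuclei, and the promoter gave 0.89 and -0.15. For Nlrp3 the summed regions gave 1.31 and -0.18, while its promoter was higher in DOX in both classes, at 1.70 and 0.88 (interval 0.34 to 1.42). Once clusters 3 and 6 were left out of the other nuclei, the Nlrp3 promoter gave 0.15 there (interval -0.62 to 0.91). The opposition ended under some other class rules: in other nuclei the summed regions gave 1.34 for Nlrp3 and 0.39 for Tnf with the class set on thinned counts, and 0.51 for Nlrp3 with 2 of 3 markers open. With clusters 3 and 6 left out of the other nuclei the values there stayed negative. They were -0.31 for Nlrp3 (interval -0.43 to -0.19) and -0.33 for Tnf (interval -0.39 to -0.26). Of the marker-open nuclei 80.8% in DOX and 33.2% in EtOH lay in clusters 3 and 6. Within cluster 3 the summed regions gave 0.06 for Tnf (interval -0.04 to 0.16) and 0.03 for Nlrp3 (interval -0.07 to 0.13).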

How the results depend on the processing

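No paired analysis was possible because DOX and EtOH are single libraries in which the cells of the mice were mixed. In marker-open nuclei the regions higher in DOX, 46 as reported, numbered 6 with 2 of 3 markers open, 4 with clusters 3 and 6 in place of the markers, 4 with the class set on thinned counts, 3 in cluster 3 alone and 1 in cluster 6 alone. The regions lower in DOX, 2 as reported, numbered 0 under the last 4 of these and 1 with ratios centred on the median. In other nuclei the regions higher in DOX, 10 as reported, numbered 34 with 2 of 3 markers, 44 with thinned counts, 3 with clusters in place of markers, 3 without clusters 3 and 6, and 5 at a minimum of 200 counts. Those lower, 3 as reported, numbered 7 with clusters and 1 with thinned counts. With promoter regions alone, at most 12 regions could be compared. In marker-open nuclei 9 were higher and 0 lower in DOX, beside 3.77% and 8.18% of all promoters, which were counted per gene. In other nuclei 2 were higher and 0 lower, and a share over all promoters is not given. Higher in marker-open than other nuclei were 11 in DOX and 10 in EtOH, beside 6.40% and 3.30% of all gene promoters. The share of nuclei marker-open, 48.6% in DOX and 24.5% in EtOH, was 32.3% and 6.99% with 2 of 3 markers, 41.8% and 9.12% with clusters, and 11.3% and 3.58% with thinned counts, and 26.6% in EtOH with 1 count in place of 2. For summed regions the log2 ratio changed sign in cluster 6 for C5ar1 (-0.03), Clec4d (-0.30), Il1a (-0.06), Il1b (-0.30) and Nlrp3 (-0.02), in cluster 3 for Clec4d (-0.05) and Il1b (-0.06), and with both clusters in place of the markers for Clec4d (-0.13) and Il1b (-0.11). Below 2-fold as reported, Tnf in cluster 6 (-0.09) and Osm in cluster 3 and with both clusters (-0.05) also changed sign. In other nuclei so did Nlrp3 with 2 of 3 markers (0.51) and thinned counts (1.34), Tnf with thinned counts (0.39), and, near 0, Il10 and Osm with both clusters in place of the markers (-0.05 and -0.07) and without them (-0.02 and -0.06). Il1b in other nuclei ranged from 1.92 to 2.19 over its alternatives, and Il10 in marker-open nuclei from 0.49 to 1.05. Of 80 alternative values of the counts and shares 50 were within 1.5 times the reported count or inside its interval. The cause of these changes was not tested, and EtOH depth in clusters 3 and 6, with 215 and 68 nuclei, limits what those ratios show.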
